A study of Arabidopsis thaliana with 19 samples.

Results

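The class IV HD-ZIP genes of Arabidopsis encode transcription factors that carry a homeodomain, a leucine zipper and a lipid-binding START domain. The 10 loci described here (ATML1, PDF2, HDG1, HDG2, HDG5, HDG7, HDG11, HDG12, ANL2 and GL2) were chosen by name, found by locus in the authors' averaged table of 21021 loci, and followed by probe set over 19 arrays. Transcripts were measured on Affymetrix ATH1 arrays in cells sorted from shoot apices of 28-day-old plants, after the apices had been turned into protoplasts. Each population was sorted for a fluorescent protein driven by a promoter, and all 7 populations carried the ap1-1 and cal1-1 mutations, with which the apex makes many meristems in place of flowers. No unmutated or unsorted sample was analysed here, so every comparison is between sorted populations.

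The populations are named by their reporters. AtML1 (2 arrays) and HMG (3 arrays) are both labelled epidermal and are together called the epidermis here. HDG4 (3 arrays) is labelled subepidermal, KAN1 (3 arrays) organ circumference and LAS (2 arrays) adaxial. AtHB8 (3 arrays) is labelled xylem, with the word stem, and S17 (3 arrays) phloem, and both are together called the vascular reporters. A reporter marks the cells in which its promoter is active, so a population can hold more than the labelled cell type. The ATML1 promoter itself drove the AtML1 reporter, so a high ATML1 level in those cells restates how they were sorted, whereas the other populations were sorted without it. Likewise HDG4 is both a reporter here and a gene of the same family.

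In this family ATML1 and PDF2 are known as redundant regulators of epidermal identity that bind the L1 box, a short motif in the promoters of genes active in the outermost layer. GL2 is known for trichome and root hair fate, and ANL2 for anthocyanin in subepidermal cells and for root development. HDG11 and HDG12 are known for trichome branching, HDG2 for epidermal differentiation, HDG5 for floral organs together with PDF2, and HDG1 for cuticle genes.

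Whole-array features bear on all values below. The 19 arrays had median signals of 151 to 182, and precision is limited by how many arrays each population has. The ratio of the 3' to the 5' GAPDH probe set, a sign of how far amplified RNA covers a transcript, spanned 6.07 to 23.2, with 8.95 to 18.3 in the epidermis, 9.44 to 20.0 in HDG4, 6.27 to 7.94 in KAN1, 11.6 to 23.2 in LAS and 6.07 to 12.3 in the vascular reporters. The same ratio for actin was larger, 68.6 to 177, and ranked the arrays differently. AtHB8 replicate 3 was highest by actin and at 7.69 by GAPDH, and HDG4 replicate 4 was lowest by actin and at 20.0 by GAPDH. The part of these ratios in the results was not tested. Nothing in the labels ties replicates to separate plants or sorts. The p-values then cover the spread among these arrays, which may be technical. Within a bulk population, fewer cells of a type and less RNA per cell cannot be told apart.

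The labels could be set against markers that are no members of the family. The summed signal of 6 epidermal markers (PDF1, LTP1, FDH, ACR4, BDG1 and HTH) was 52645 to 68819 over the epidermal arrays, 45024 to 50756 in KAN1, 24062 to 27255 in LAS, 3622 to 4319 in HDG4 and 752 to 1779 over the vascular arrays. Epidermal transcripts were abundant in KAN1 and LAS and scarce in HDG4, while BDG1 was called absent in both vascular populations and ACR4 in S17. The summed signal of 6 xylem and procambium markers was 18419 to 21863 in AtHB8 and 92.5 to 462 in the 5 non-vascular populations, and 3904 to 4771 in S17. ATHB8, the gene the AtHB8 reporter is named after, is among the 6 and had a mean of 9303 in AtHB8. That part of the sum restates how the cells were sorted. The others had means there of 6286 (PXY), 3324 (TMO5), 623 (VND7), 177 (IRX3) and 98.8 (XCP1). The summed signal of 6 phloem markers was 30373 to 33915 in S17 and 4280 to 6130 in AtHB8. The AtHB8 sum was mostly BAM3, with a mean of 4643 there. SUC2 had a mean of 100.5 and SWEET11 of 48.0 in AtHB8, and APL, SEOR1 and SEOR2 were called absent on all its arrays. Phloem markers also summed to 2049 to 4370 in HDG4 and 875 to 1706 in KAN1, above the 122 to 374 of the epidermal arrays. The HDG4 gene does not check its own reporter, as it was called absent on all 19 arrays.

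The 10 members fell into unlike patterns. ATML1, PDF2, HDG2 and HDG5 were high in the epidermis, intermediate in KAN1 and LAS, low in HDG4 and lowest in the vascular reporters. HDG11 and HDG12 had smaller differences in the same direction between epidermis and vascular reporters. ANL2 had similar levels in all 5 non-vascular populations and was called absent in the vascular ones. HDG1 and HDG7 had their highest means in HDG4, and GL2 in AtHB8. All 10 members passed the filter on dim probe sets, but HDG7 passed only through its HDG4 arrays, GL2 only through its AtHB8 arrays and HDG12 only through its AtML1 and HMG arrays, so these had to differ to be tested. No member but GL2 passed through AtHB8 or S17, HDG5 did not pass through HDG4, and HDG11 did not pass through KAN1. The filter therefore favoured their higher calls against those populations. All 10 differed among the 7 reporters by limma's moderated F test (adjusted p between 1.57e-10 for ATML1 and 0.00328 for GL2), as did 75.2% of all 15149 tested probe sets.

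**Figure D1:**
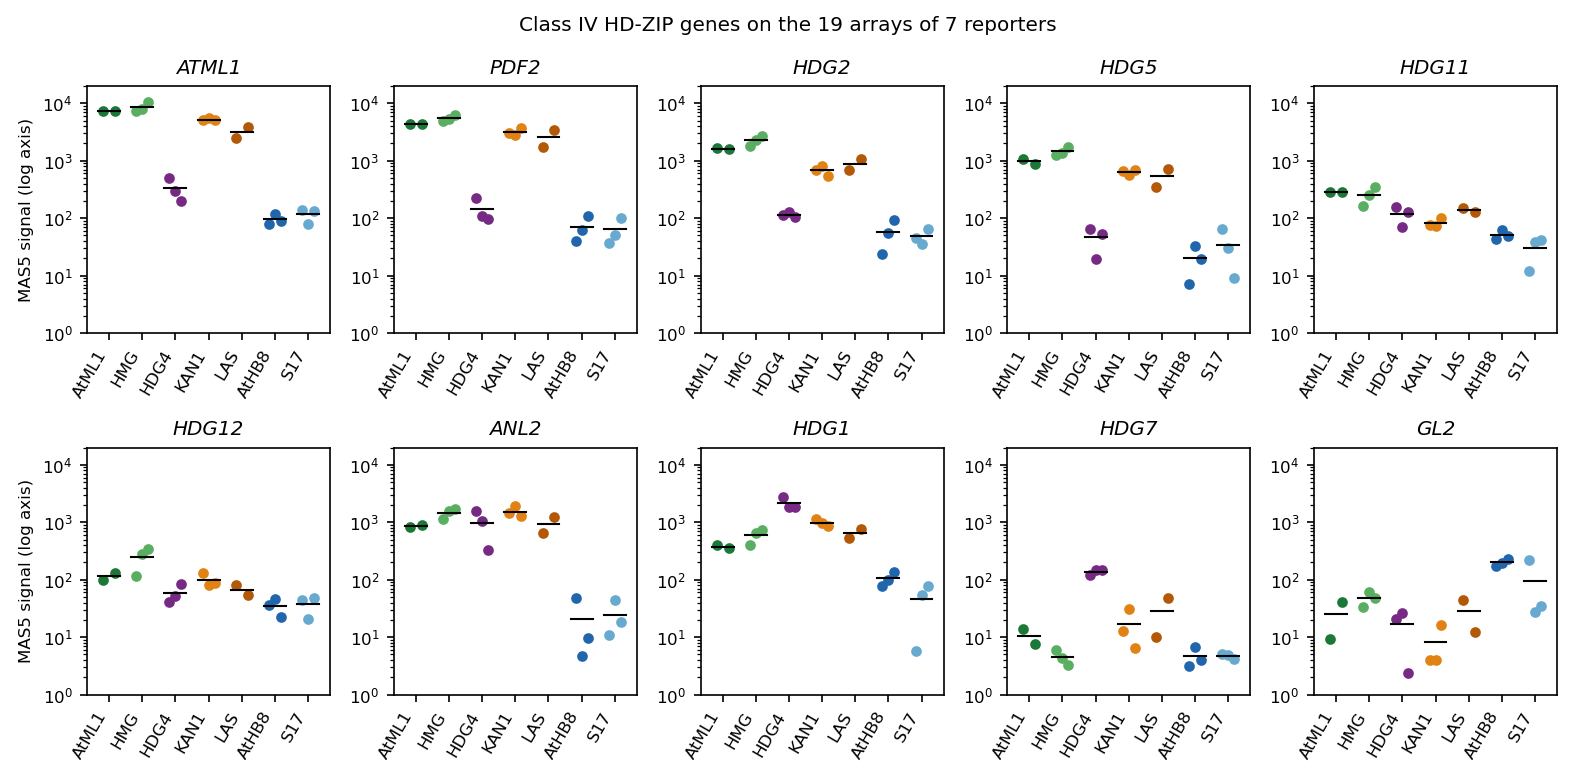
MAS5 signal (log axis) of the 10 members, 1 panel each, in the 7 reporter populations. Points are arrays and bars are means. ATML1, PDF2, HDG2 and HDG5 share a shape with a step down at HDG4, ANL2 drops only in AtHB8 and S17, HDG1 and HDG7 peak in HDG4, and GL2 peaks in AtHB8. Heights in different panels belong to different probe sets and are not comparable.

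ATML1 (AT4G21750) had signals of 7366 and 7307 in AtML1 and of 7478, 7963 and 10344 in HMG. KAN1 had 5089.8, 5487 and 5093, and LAS had 2471 and 3889. It was at 495, 301 and 201 in HDG4, at 80.7, 120.4 and 90.7 in AtHB8, and at 141, 77.9 and 134 in S17. The 5 epidermal arrays lay above every other array, and the KAN1 and LAS arrays lay above every HDG4 and vascular array. ATML1 was the only member called present on all 19 arrays. Relative to the epidermal mean, its mean signal was 65.6% in KAN1, 39.9% in LAS, 4.17% in HDG4, 1.22% in AtHB8 and 1.48% in S17. On the log2(signal + 1) scale, on which every difference is given and on which the added 1 understates those of dim genes, the epidermis exceeded HDG4 by 4.67 ± 0.27 (SE, limma adjusted p = 1.29e-08) and the vascular reporters by 6.23 ± 0.23 (limma adjusted p = 8.85e-12). It exceeded LAS by 1.35 ± 0.31 (limma adjusted p = 0.0129), a call that was lost without LAS replicate 1 (1.02, limma adjusted p = 0.202). The difference from KAN1, 0.60 ± 0.27, was not called (limma adjusted p = 0.139).

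PDF2 (AT4G04890), the closest partner of ATML1 in function, had signals of 4333 and 4339 in AtML1 and of 4884, 5391 and 6265 in HMG. It was at 3018, 2816 and 3696 in KAN1 and at 1748 and 3364 in LAS. HDG4 had 228, 107 and 96.4, AtHB8 had 40.2, 62.2 and 109, and S17 had 37.6, 52.0 and 102. The epidermal arrays again stood above all others, and PDF2 was called absent on all 6 vascular arrays. The epidermis exceeded HDG4 by 5.18 ± 0.37 (limma adjusted p = 1.19e-07). The difference from the vascular reporters was 6.28 ± 0.31 (limma adjusted p = 2.14e-10). As PDF2 was called absent there, this is at least 77.8-fold as a ratio of geometric means and at least 73.3-fold as a ratio of arithmetic means. PDF2 did not differ past the threshold between epidermis and KAN1 (0.63 ± 0.37, limma adjusted p = 0.256) or LAS (1.01 ± 0.42, limma adjusted p = 0.156).

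HDG2 (AT1G05230), which acts in epidermal differentiation, had signals of 1635 and 1581 in AtML1 and of 1773, 2301 and 2696 in HMG. KAN1 had 684, 819.8 and 549.8, and LAS had 684 and 1077. HDG4 had 116, 128 and 104, AtHB8 had 23.7, 56.3 and 92.7, and S17 had 45.5, 36.2 and 66.2. No epidermal array overlapped any other population. HDG2 was 4.03 ± 0.33 higher in the epidermis than in HDG4 (limma adjusted p = 5.89e-07) and 5.25 ± 0.28 higher than in the vascular reporters (limma adjusted p = 5.36e-10). It was also higher than in KAN1, by 1.48 ± 0.33 (limma adjusted p = 0.00601), where it kept 35.4% of its epidermal mean. The difference from LAS, 1.14 ± 0.38, was not called (limma adjusted p = 0.0771). It was called with log2(signal + 32) (1.11, limma adjusted p = 0.00939), and without AtHB8 replicate 1 (limma adjusted p = 0.0192) or AtHB8 replicate 3 (limma adjusted p = 0.0365).

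HDG5 (AT5G46880), known to act with PDF2 in petals and stamens, had signals of 1074 and 868 in AtML1 and of 1254, 1379.7 and 1757 in HMG. It was at 672, 574 and 682 in KAN1 and at 345 and 727 in LAS. It was called absent on all HDG4 arrays (65.4, 19.7 and 54.1) and on all vascular arrays, which lay between 7.15 and 64.9. HDG5 was thus detected in the epidermis, KAN1 and LAS, with no overlap between the epidermal arrays and the rest. The epidermal level was at least 23.9-fold that of HDG4 (limma adjusted p = 2.02e-05) and at least 32.9-fold that of the vascular reporters (limma adjusted p = 5.05e-08). Here "at least" sets each array of the side called absent at the higher of its own signal and a floor, the dimmest probe set called present throughout its reporter, and compares geometric means. Differences from KAN1 (0.88 ± 0.56, limma adjusted p = 0.289) and LAS (1.24 ± 0.63, limma adjusted p = 0.25) were not called.

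Both LAS arrays differed for these genes. LAS replicate 1 was below LAS replicate 2 for ATML1, PDF2, HDG2 and HDG5, and for HDG5 the signal was 345 against 727.

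HDG11 (AT1G73360), named for trichome branching and drought tolerance, had signals of 290.3 and 287 in AtML1 and of 163, 249 and 356 in HMG. HDG4 had 157, 71.5 and 126, KAN1 had 76.3, 71.9 and 102, and LAS had 153 and 129. The AtHB8 arrays were at 43.3, 61.4 and 48.5 and the S17 arrays at 12.3, 37.8 and 41.9, and all 6 were called absent. The lowest epidermal array, HMG replicate 1, was close to the highest HDG4 array. HDG11 was higher in the epidermis than in KAN1 by 1.68 ± 0.36 (limma adjusted p = 0.00436), where it kept 30.6% of its epidermal mean, and at least 5.96-fold higher than in the vascular reporters (limma adjusted p = 1.08e-06). The difference from HDG4, 1.23 ± 0.36, was called (limma adjusted p = 0.0249). That call was lost without HDG4 replicate 3 (0.91, limma adjusted p = 0.142), AtML1 replicate 1 (limma adjusted p = 0.0563) or AtML1 replicate 3 (limma adjusted p = 0.0633), with no filter (limma adjusted p = 0.0511) and with quantile normalization (limma adjusted p = 0.0618).

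HDG12 (AT1G17920), which overlaps in function with HDG11, had signals of 101 and 132 in AtML1 and of 117, 279 and 336 in HMG. HDG4 had 41.0, 52.6 and 84.0, KAN1 had 132, 80.9 and 88.4, and LAS had 81.1 and 53.4. AtHB8 had 36.6, 45.9 and 22.8, and S17 had 44.8, 20.8 and 48.4. HMG replicate 1 lay within the range of AtML1, well below the other HMG arrays, and the KAN1 arrays overlapped the epidermal ones. HDG12 passed the filter only through its AtML1 and HMG arrays, which favoured its higher calls in the epidermis. HDG12 was higher in the epidermis than in the vascular reporters by 2.18 ± 0.31 (limma adjusted p = 2.46e-05). It was higher than in HDG4 by 1.49 ± 0.38 (limma adjusted p = 0.0113), a call lost without HDG4 replicate 1 (1.26, limma adjusted p = 0.0548).

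ANL2 (AT4G00730), required for anthocyanin in the layer beneath the epidermis, had signals of 841 and 885 in AtML1 and of 1119.6, 1568 and 1674 in HMG. HDG4 had 1582, 1062 and 324, KAN1 had 1423, 1888 and 1285, and LAS had 645 and 1219.8. AtHB8 had 47.4, 4.67 and 9.85 and S17 had 11.0, 43.5 and 18.7, and all 6 vascular arrays were called absent. The non-vascular populations overlapped each other, HDG4 spanned the widest range, and every non-vascular array lay above every vascular one. Set against the vascular reporters, ANL2 was at least 32.2-fold higher in the epidermis (limma adjusted p = 1.13e-07), at least 33.5-fold higher in KAN1 and LAS together (limma adjusted p = 1.45e-07) and at least 23.7-fold higher in HDG4 (limma adjusted p = 1.71e-06). The epidermis did not differ past the threshold from HDG4 (0.44 ± 0.62, limma adjusted p = 0.663), KAN1 (-0.44 ± 0.62, limma adjusted p = 0.666) or LAS (0.32 ± 0.71, limma adjusted p = 0.831).

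HDG1 (AT3G61150), a regulator of cuticle genes, had its highest mean in HDG4 and, among the non-vascular populations, its lowest in AtML1. Its signals were 2700.2, 1856 and 1823 in HDG4, against 400.0 and 351 in AtML1 and 408, 639 and 747 in HMG. KAN1 had 1124, 955 and 878, and LAS had 541 and 764. AtHB8 had 76.3, 101 and 138, and S17 had 5.84, 53.7 and 77.2. All HDG4 arrays lay above all arrays of the other populations, and the epidermis lay below KAN1 and above the vascular reporters. The difference of HDG4 from KAN1, 1.09 ± 0.62, was not called (limma adjusted p = 0.197). The HDG4 mean was 437% of the epidermal mean, and the epidermis was lower than HDG4 by a log2 difference of -2.16 ± 0.56 (limma adjusted p = 0.0124). HDG1 was above the vascular reporters in the epidermis, by 3.05 ± 0.46 (limma adjusted p = 4.11e-05), and in HDG4, by 5.21 ± 0.53 (limma adjusted p = 1.05e-06). The epidermis minus KAN1 difference, -1.07 ± 0.56, was not called (limma adjusted p = 0.197). It was called without S17 replicate 1 (limma adjusted p = 0.00737), the HDG1 array of lowest signal, and with log2(signal + 32) (-1.02, limma adjusted p = 0.014).

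HDG7 (AT5G52170), a close relative of ANL2 and HDG1 in sequence according to the deposited gene descriptions, had signals of 122, 146 and 146 in HDG4. The epidermal arrays had 13.7 and 7.68 in AtML1 and 5.87, 4.34 and 3.25 in HMG. KAN1 had 13.0, 31.2 and 6.44, LAS had 10.1 and 47.5, and the vascular arrays lay between 3.21 and 6.69. The HDG4 arrays stood apart from all others. Their detection was weak, since HDG7 was called present on no array and marginal on 1, which was an HDG4 array. HDG7 passed the filter only through its HDG4 arrays, so HDG4 had to be high for it to be tested. That favoured the calls that follow. HDG7 was at least 4.92-fold lower in the epidermis than in HDG4 (limma adjusted p = 1.19e-05), and at least 4.91-fold higher in HDG4 than in the vascular reporters (limma adjusted p = 4.53e-07). Phloem markers were also raised in HDG4, and their sums were highest in S17, where HDG7 was at 5.04, 4.92 and 4.08. The single markers were split. SEOR1 and SEOR2 had higher means in HDG4 (1516 and 743) than in S17 (711 and 377), and APL, SUC2, BAM3 and SWEET11 had higher means in S17. The part of phloem cells in the HDG7 level was not tested.

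GL2 (AT1G79840), the regulator of trichomes and root hairs, had signals of 176, 197 and 229 in AtHB8 and was called present on those 3 arrays. S17 had 217, 27.3 and 34.9 and 1 present call. The epidermis had 9.21 and 41.6 in AtML1 and 33.2, 60.9 and 47.3 in HMG, with 1 present call in HMG. HDG4 had 21.1, 26.8 and 2.34, KAN1 had 3.99, 4.05 and 16.2, and LAS had 43.5 and 12.4, all called absent. The AtHB8 arrays and S17 replicate 1 lay above all others. GL2 passed the filter only through its AtHB8 arrays, so AtHB8 had to be high for it to be tested. That favoured the lower calls that follow. GL2 was lower in the epidermis than in the vascular reporters (log2 difference -1.82 ± 0.65, limma adjusted p = 0.0253). This call was lost without S17 replicate 1 (-1.36, limma adjusted p = 0.0647), AtML1 replicate 1 (-1.30, limma adjusted p = 0.152) or HMG replicate 1 (-1.71, limma adjusted p = 0.0509). The level in AtML1 was at least 5.85-fold lower than in AtHB8 (limma adjusted p = 0.0125), and that in KAN1 at least 7.93-fold lower (limma adjusted p = 0.000551).

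The rest of the family was near background. HDG3, HDG4, FWA, HDG8 and HDG10 were called absent on all 19 arrays and HDG9 was called present on 2, and none of these 6 genes passed the filter. Their highest signal was 88.8, for HDG4.

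Counted over the members, epidermis against HDG4 called 6 of 10 higher and 2 lower, where 9.64% of all tested probe sets were called (5.69% higher and 3.95% lower). The median log2 difference of the members was 1.39, against -0.07 over all tested probe sets. Higher were ATML1, PDF2, HDG2, HDG5, HDG11 and HDG12, and lower were HDG1 and HDG7. The filter favoured the calls of HDG5, HDG12 and HDG7. HDG5 did not pass it through HDG4, HDG12 passed only through AtML1 and HMG, and HDG7 only through HDG4. ANL2 and GL2 (at least 1.09-fold, limma adjusted p = 0.268) were not called. The 5 epidermal and 3 HDG4 arrays did not overlap for 8 of the 10 members, as for 17.1% of all tested probe sets.

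Epidermis against KAN1 called 2 of 10, HDG2 and HDG11, both higher, where 8.89% of all probe sets were called, 2.60% higher and 6.29% lower. HDG11 did not pass the filter through KAN1, which favoured its call. The members' median was 0.67, against -0.02 over all. The summed signal of the 5 mesophyll and photosynthesis markers with a probe set was 2027 to 3637 over the epidermal arrays and 6935 to 9132 in KAN1, and its part in the KAN1 comparison was not tested. Epidermis against LAS called 1 of 10, ATML1, where 5.97% of all were called (3.89% higher and 2.07% lower), with a median of 0.96 against -0.07. HDG12 was called against LAS without HMG replicate 1 (limma adjusted p = 0.0224) and with array weights (1.40, limma adjusted p = 0.033), and HDG5 with log2(signal + 32) (1.18, limma adjusted p = 0.0206). HDG7 was called lower without LAS replicate 1 (limma adjusted p = 0.015), KAN1 replicate 2 (limma adjusted p = 0.0417) or KAN1 replicate 3 (limma adjusted p = 0.0498), though called absent on both sides. Against KAN1, GL2 (at least 1.24-fold, limma adjusted p = 0.0827) was called with array weights (limma adjusted p = 0.0166) and without HDG4 replicate 4 (limma adjusted p = 0.0443).

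Against the vascular reporters the epidermis had 8 of 10 members higher and 1, GL2, lower, where 29.0% of all probe sets were called (13.0% higher and 16.0% lower). The median was 4.15 against 0.11 over all. HDG7 was not called (limma adjusted p = 0.274), and both sides were called absent. KAN1 and LAS together, set against the vascular reporters, called all 10 members, 9 of them higher and GL2 lower, where 28.0% of all were called (13.2% higher and 14.7% lower). For HDG7 both of those sides were called absent. With log2(signal + 32) HDG7, HDG11 (0.98) and HDG12 (0.74) fell short of the 2-fold minimum there. HDG4 against the vascular reporters called 7 members higher and GL2 lower, where 33.9% of all were called (16.6% higher and 17.2% lower). Among them ATML1 was 1.56 ± 0.26 higher (limma adjusted p = 0.000107) and HDG2 1.22 ± 0.32 higher (limma adjusted p = 0.00412), so both were low but not at the vascular level in HDG4 cells. PDF2 was 1.10 ± 0.35 higher (limma adjusted p = 0.0144), a call lost without HDG4 replicate 1 (0.71, limma adjusted p = 0.115). PDF2 and HDG2 fell short of the 2-fold minimum without AtHB8 replicate 1 (0.93 and 0.96) and with log2(signal + 32) (0.81 and 0.83), and PDF2 also without S17 replicate 1 (0.94). HDG5, absent on both sides (limma adjusted p = 0.14), was called without HDG4 replicate 3 (limma adjusted p = 0.046) or S17 replicate 1 (limma adjusted p = 0.0387). These 3 comparisons share the 6 vascular arrays. Every member but GL2 passed the filter only through non-vascular arrays, which favoured calls above the vascular reporters. GL2 passed only through its AtHB8 arrays, which favoured its lower calls.

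**Figure D2:**
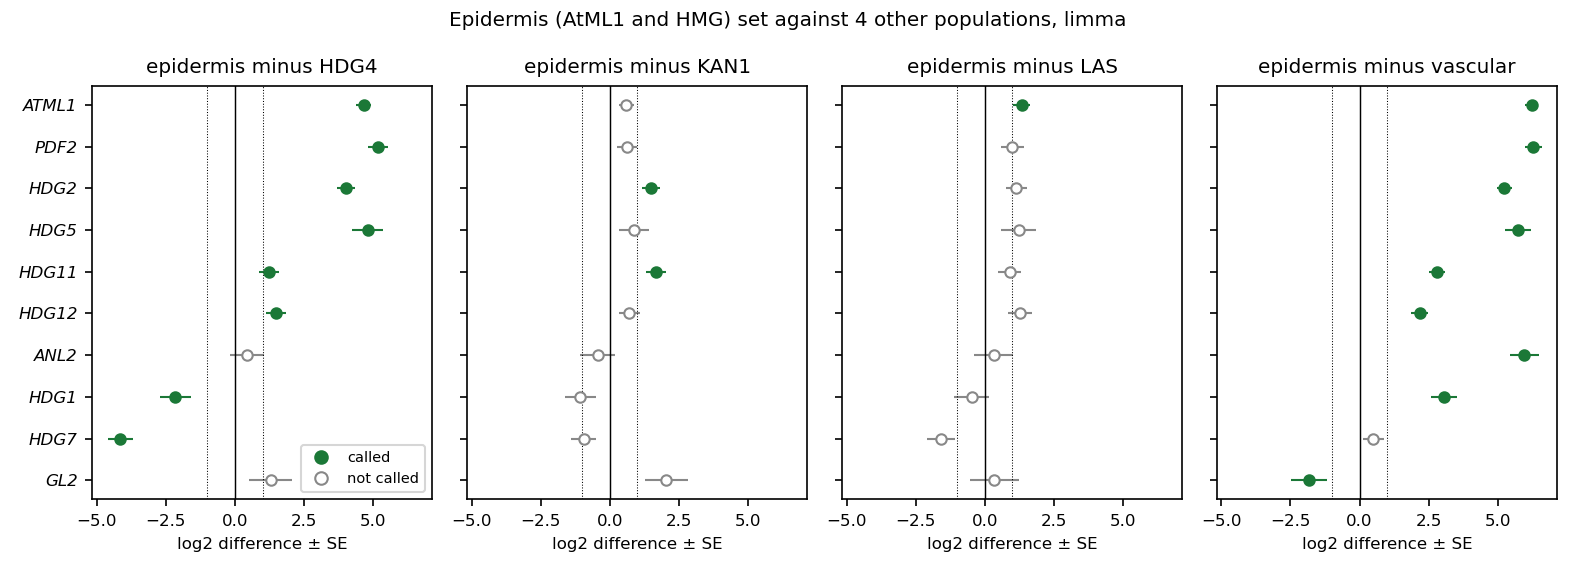
Log2 difference of the epidermis (mean of AtML1 and HMG) minus HDG4, KAN1, LAS and the vascular reporters for the 10 members, with SE from limma. Filled points were called and open points were not, and dotted lines mark 2-fold. Against HDG4, 6 filled points lie right of the 2-fold lines and those of HDG1 and HDG7 lie left, whereas against KAN1 only HDG2 and HDG11 and against LAS only ATML1 are filled.

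Against the mean of the 5 other reporters the epidermis had 7 members higher and HDG7 lower, where 12.7% of all probe sets were called (4.71% higher and 7.95% lower). This mean mixes unlike populations. The ANL2 difference of 2.45 ± 0.45 (limma adjusted p = 0.00059) became 0.11 ± 0.49 (limma adjusted p = 0.914) once the vascular reporters were left out of it, whereas ATML1 (2.20), PDF2 (2.27), HDG2 (2.22), HDG5 (2.31), HDG11 (1.27) and HDG12 (1.15) were still called, as were 6.39% of all probe sets. HDG1 had a log2 difference of 0.48 (limma adjusted p = 0.382), although its epidermal mean signal was 0.62 times the mean of the others. HDG7, called absent on all epidermal arrays (limma adjusted p = 0.0143), lost its call without AtML1 replicate 3 (limma adjusted p = 0.0964) and fell short of 2-fold without LAS replicate 2 and with log2(signal + 32). HDG7 passed the filter only through HDG4 and HDG12 only through AtML1 and HMG, which favoured their calls here.

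HDG4 against the mean of the other 6 reporters called 3 members higher and 4 lower, where 12.5% of all were called (4.06% higher and 8.48% lower). HDG1 was higher by 2.92 ± 0.48 (limma adjusted p = 0.000338) and by 1.78 ± 0.50 with the vascular reporters left out (limma adjusted p = 0.0217), a setting that called 7.89% of all. ANL2 was higher by 1.53 ± 0.53 (limma adjusted p = 0.0356), but by -0.47 ± 0.56 with the vascular reporters left out (limma adjusted p = 0.597), so its call rested on the low vascular level. That ANL2 call was also lost without HDG4 replicate 1 (1.05, limma adjusted p = 0.208), HDG4 replicate 3 (1.34, limma adjusted p = 0.151) or LAS replicate 1 (1.45, limma adjusted p = 0.055) and with no filter (limma adjusted p = 0.067). PDF2 (-2.82 ± 0.32), ATML1 (-2.27 ± 0.23) and HDG2 (-1.84 ± 0.29) were lower in HDG4, as was HDG5, at least 4.97-fold. HDG7 was the remaining member higher in HDG4. It passed the filter only through HDG4, and HDG5 did not pass through HDG4, which favoured both calls.

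AtML1 against HMG, both labelled epidermal, called none of the 10 members by limma, and none had an unadjusted p under 0.05, where 5.01% of all probe sets were called (2.69% higher and 2.32% lower). The smallest adjusted p was 0.205, for HDG12 (-0.94 ± 0.47). Its difference was called without HMG replicate 1 (-1.40, limma adjusted p = 0.0465) and with array weights (-1.21, limma adjusted p = 0.0332). Of the 10 members 8 had a lower mean in AtML1 than in HMG, and 7 had arrays that did not overlap, as 43.1% of all tested probe sets did with 2 arrays against 3. The median difference was -0.53, against 0.02 over all.

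Whether members differed in the size of their epidermal difference was tested directly, by an exact permutation test over arrays of the log2 ratio of ATML1 to each other member, two-sided, with 36 tests adjusted together. The epidermal arrays include those of AtML1, sorted by the ATML1 promoter, where the ATML1 level restates the sorting. The mean ATML1 signal was 7336 in AtML1 and 8595 in HMG, and the test was not run on HMG alone. Against the vascular reporters (5 arrays against 6, smallest possible p 0.00433), the ATML1 difference exceeded that of HDG2 by 0.96 and that of HDG12 by 3.98 (exact permutation adjusted p = 0.0312 each). Both sizes depend on background, since HDG2 and HDG12 were each called absent on 4 of the 6 vascular arrays. At 101 to 336 in the epidermis, HDG12 also had less room to fall than ATML1, so the test cannot separate its pattern from its low signal. For HDG1 the ATML1 difference was 3.13 larger, which did not pass (exact permutation adjusted p = 0.0756) but did with log2(signal + 32) (3.46, exact permutation adjusted p = 0.0195) and without S17 replicate 1 (3.83, exact permutation adjusted p = 0.0476). The test also passed for HDG7, HDG11 and GL2 (exact permutation adjusted p = 0.0312 each), with no size given, since HDG7 and HDG11 were called absent on all vascular arrays and GL2 on 4 of the 5 epidermal ones. PDF2, HDG5 and ANL2, also absent on the vascular arrays, did not pass (exact permutation adjusted p of 0.828, 0.506 and 0.825), but HDG5 and ANL2 did with log2(signal + 32) (exact permutation adjusted p = 0.0195 each). Against HDG4, where 5 arrays against 3 cannot give a p below 0.0357, no member passed after adjustment. The ATML1 difference minus that of the member was 6.79 for HDG1, 4.17 for ANL2, 3.48 for HDG11, 3.11 for HDG12 and -0.53 for PDF2 (exact permutation adjusted p = 0.0756 each, at the smallest p). None passed against KAN1 either, where it was -0.91 for HDG2 and -1.03 for HDG11 (exact permutation adjusted p = 0.0756 each). Against LAS the smallest possible p was 0.0952.

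Set beside the epidermal markers, the members kept unlike shares of their epidermal mean signal. In KAN1 the markers kept 40.6% (ACR4) to 94.8% (LTP1), while ATML1 kept 65.6%, PDF2 64.5%, HDG5 52.8%, HDG2 35.4% and HDG11 30.6%. In LAS the markers kept 31.5% (BDG1) to 51.4% (PDF1), and ATML1, PDF2, HDG2 and HDG5 kept 39.9% to 51.9%. In HDG4 the markers kept 3.12% (FDH) to 22.4% (ACR4), those 4 members 2.92% to 5.98%, HDG12 32.8%, HDG11 43.4% and ANL2 85.4%. In the vascular reporters the markers kept 0.807% to 4.40% and those 4 members 1.22% to 2.98%. HDG11 kept 18.7% in AtHB8 and 11.3% in S17, where it was called absent on all arrays. HDG12 kept 19.5% in AtHB8, where it was called absent on all arrays, and 21.1% in S17. In HDG4, HDG11, HDG12, ANL2 and HDG1 (437%) lay above all 6 markers and PDF2 below them, and in KAN1 HDG2 and HDG11 lay below them. Background can raise the shares of dim genes, so the HDG4 shares of HDG11 and HDG12 cannot be read as retention beyond the markers. The part of epidermal cells within the other populations in these levels was not tested.

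**Figure D3:**
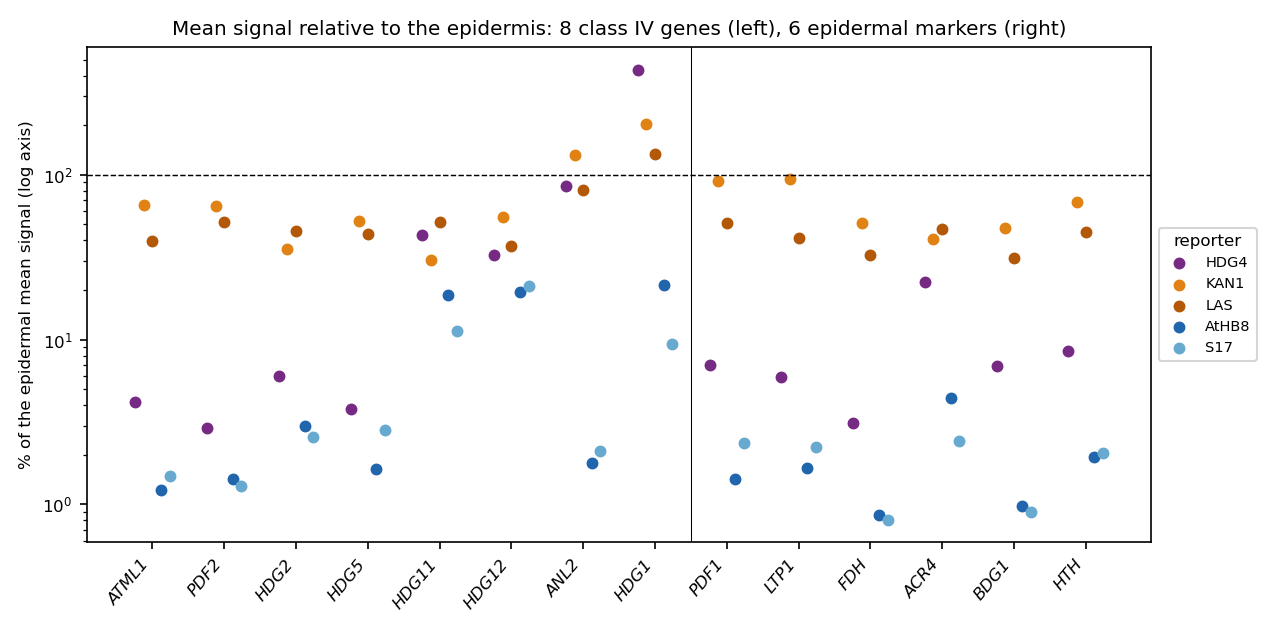
Mean signal as a percentage of the epidermal mean (log axis) in HDG4, KAN1, LAS, AtHB8 and S17 for 8 members and 6 epidermal markers that are no members. ATML1, PDF2, HDG2 and HDG5 are at 2.92% to 5.98% in HDG4 and the markers at 3.12% to 22.4%, while ANL2 and HDG1 stay at 85.4% and 437% there. HDG7 and GL2, which were near background in the epidermis, are left out.

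Each member's reporter means of log2(signal + 1) were put in order and neighbours were tested. Over the 21 pairs of reporters, 116 of 210 member differences were called, where 19.1% of all were called. The number per member ran between 16 for HDG2 and 7 for GL2, with 15 for ATML1, 14 for PDF2, 12 for HDG5 and HDG11, 11 for HDG1 and HDG7, 10 for ANL2 and 8 for HDG12. ATML1 ran HMG, AtML1, KAN1, LAS, HDG4, S17, AtHB8 in falling order. Of those neighbours only LAS exceeded HDG4 (3.32, limma adjusted p = 2.73e-05) and HDG4 exceeded S17 (1.44, limma adjusted p = 0.000837). PDF2 had the same order down to HDG4, with called steps at LAS over HDG4 (4.18, limma adjusted p = 5.49e-05) and HDG4 over AtHB8 (1.03, limma adjusted p = 0.0455), where AtHB8 was called absent. HDG2 ran with LAS above KAN1, and its called steps were KAN1 over HDG4 (2.54, limma adjusted p = 0.000179) and HDG4 over AtHB8 (1.19, limma adjusted p = 0.0138). HDG5 had 1 called step, LAS over HDG4 (at least 10.1-fold, limma adjusted p = 0.00533).

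ANL2, HDG1 and HDG7 had 1 called step each. ANL2 ran KAN1, HMG, LAS, AtML1, HDG4, S17, AtHB8, and only HDG4 over S17 was called (at least 23.0-fold, limma adjusted p = 1.38e-05). By arithmetic mean signal HDG4 (989.6) lay above LAS (933) and AtML1 (863), so the order of these 3 depends on the scale. HDG1 ran HDG4, KAN1, LAS, HMG, AtML1, AtHB8, S17, with 1 called step at AtML1 over AtHB8 (1.87, limma adjusted p = 0.037). HDG7 had HDG4 over LAS (at least 3.31-fold, limma adjusted p = 0.0122), and its other neighbours were not called. No neighbours were called for HDG11, HDG12 and GL2, so their orders are not resolved step by step. The highest and lowest means were AtML1 and S17 for HDG11, HMG and AtHB8 for HDG12, and AtHB8 and KAN1 for GL2.

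Genes of the outer layer that act downstream of or beside ATML1 and PDF2 were described from a list of 15, of which 13 were tested. Against HDG4, 11 of 13 were higher in the epidermis and none lower, with a median of 3.53, where 5.69% of all probe sets were higher and the median was -0.07. GSO1 passed the filter only through the AtML1 and HMG arrays, so it had to differ. BDG1, ABCG12 and CYP86A2 did not pass through HDG4, and of the 13 only PDF1, LTP1, HTH, ALE2 and DEK1 passed through the vascular reporters. The filter favoured higher calls of the rest there. The 11 higher genes included PDF1, an L1-box gene (3.84 ± 0.31, limma adjusted p = 3.7e-07), the cuticle lipid enzyme gene FDH (5.03 ± 0.30, limma adjusted p = 1.61e-08) and the receptor kinase gene ACR4 (2.15 ± 0.18, limma adjusted p = 5.89e-07). The exceptions were DEK1 (0.04), a calpain, and ALE2 (0.58), a receptor kinase, which were not called in any of the comparisons of the epidermis. Against KAN1 only ACR4 was higher (1.29 ± 0.18, limma adjusted p = 0.000154), where 2.60% of all were. Against LAS 6 were higher, where 3.89% of all were, among them FDH (1.63 ± 0.34, limma adjusted p = 0.0076) and LTP1 (1.23 ± 0.26, limma adjusted p = 0.00788). Against the vascular reporters 11 were higher with a median of 5.26, where 13.0% of all were higher with a median of 0.11, and AtML1 and HMG differed for none of the 13. The protease gene ALE1 did not pass the filter.

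The pathway around GL2 was described from a list of 13 genes, of which 6 were tested. GL1, WER, MYB23, ETC1, RHD6 and PLDP1 did not pass the filter. Against the vascular reporters the epidermis was lower for SIM, a cell cycle inhibitor of trichomes (at least 11.6-fold, limma adjusted p = 2.48e-09), and for TTG2, a WRKY factor of trichomes (-2.71 ± 0.67, limma adjusted p = 0.00271). Both had to differ to be tested, since SIM passed the filter only through the AtHB8 and S17 arrays and TTG2 only through the AtHB8 arrays, and 16.0% of all probe sets were lower there. Both were called present on all 6 vascular arrays, where SIM lay between 127 and 858 and TTG2 between 43.3 and 186. TRY, a repressor of trichome fate, was higher in the epidermis, at least 4.24-fold (limma adjusted p = 3.82e-06). It passed the filter only through its AtML1, HMG and KAN1 arrays, which favoured that call and the next. It was also at least 5.25-fold higher than in HDG4 (limma adjusted p = 9.77e-05) and 1.71 ± 0.46 higher in AtML1 than in HMG (limma adjusted p = 0.0302). EGL3, a partner of the trichome MYB factors, was higher in the epidermis than in HDG4 (1.70 ± 0.33, limma adjusted p = 0.00221). It was also higher than in LAS, with 476 to 664 over the epidermal arrays and 113 and 187 in LAS (limma adjusted p = 0.00395). CPC and TTG1 were not called in any of these 4 comparisons, and none of the 6 genes was called against KAN1.

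The members were also compared by the shape of their 7 reporter means, with Pearson's r as a description over 7 points that share libraries. ATML1, PDF2 and HDG5 had r of 0.995 to 0.996 with each other, and HDG2 had r of 0.988 to 0.990 with them. ANL2 and HDG1 had r of 0.869, HDG1 and HDG7 0.732, and HDG11 and HDG12 0.828. HDG7 had r of -0.02 with ATML1, and GL2 had negative r with every other member, with -0.81 for ANL2.

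**Figure D4:**
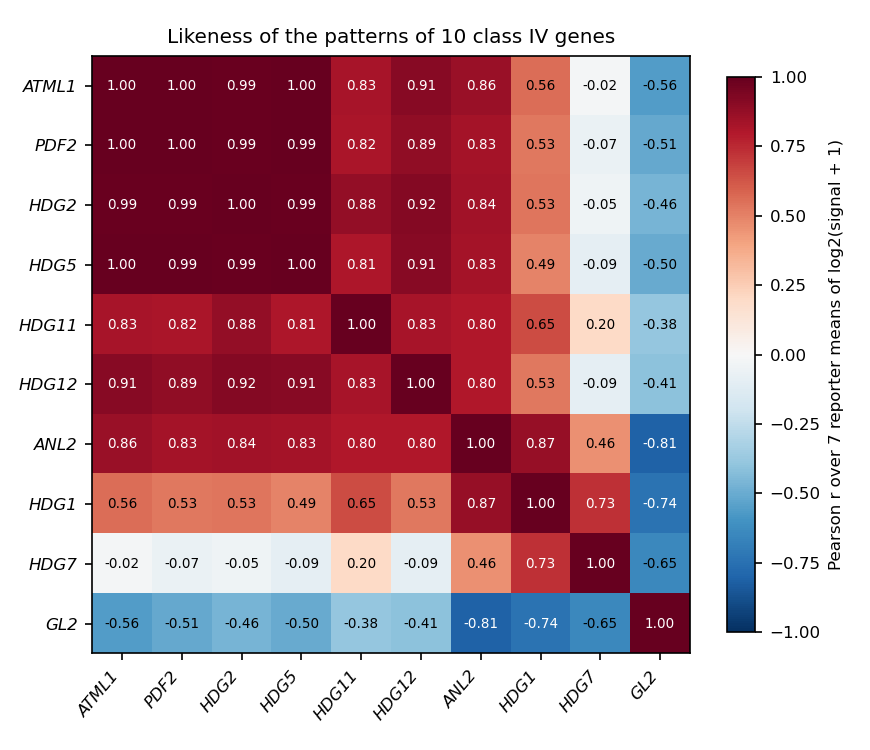
Pearson's r between members over the 7 reporter means of log2(signal + 1). ATML1, PDF2, HDG2 and HDG5 form a block above 0.98, ANL2 and HDG1 are at 0.869, and GL2 is negative with all 9 others.

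Among 9319 probe sets, the genes most like each member over the 7 reporter means were listed, 3 per member. For ATML1 they were FDH (r = 0.998, listed as KCS10), OFP15 (0.997) and LACS2 (0.997). For PDF2 they were OFP15 (0.998), ATML1 (0.996) and HDG5 (0.995), and for HDG5 they were ATML1 (0.995), PDF2 (0.995) and the acyltransferase gene GPAT3 (0.994). HDG2 was most like GPAT3 (0.995), PEL3 (0.995) and AT1G35290 (0.993). HDG1 was most like AT4G01460 (0.996), the mitotic cyclin gene CYCB1;1 (0.995) and AT2G36200 (0.992), and ANL2 like EMB3137 (0.995), GIL1 (0.990) and ERL2 (0.990). The lists of the others were PROPEP3 (0.989), AT5G48500 (0.979) and AT3G60540 (0.978) for HDG11, AT1G18390 (0.983), ACC1 (0.974) and MKS1 (0.970) for HDG12, AT1G03710 (0.957), OTP81 (0.956) and AT5G53240 (0.955) for HDG7, and NPGR2 (0.972), WRKY40 (0.971) and AT5G58620 (0.971) for GL2. Ranked over the 19 arrays instead, 4 of the 30 listed genes were listed again.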

How the data were processed

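The deposited intensity values were linear MAS5 signals per probe set, made by the authors from single-colour arrays, per the submitters' processing notes. MAS5's version and any genome build are not given in the sources used here. Each array's mean, after 2% was trimmed at each end, was 500. The authors' averaged table gave loci and detection calls per reporter, and its means matched those computed here within 0.005. Of 22810 probe sets 64 controls were left out, and 15149 of 22746 were tested, those that lay at or above the 40th percentile of each array of some reporter. The fit used log2(signal + 1) in limma 3.58.1 (R 4.3.3, statmod 1.5.0) over 19 arrays, a mean for every reporter, and 12 residual and 3.07 prior degrees of freedom. Calls needed a 2-fold difference and an adjusted p (two-sided, Benjamini-Hochberg) under 0.05. Where the dimmer side was called absent on all its arrays, folds are bounds against each array's dimmest signal of a probe set present throughout its reporter, which is no limit of detection.

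Named were the 10 members, 3 gene lists and the 3 genes most like each member. Members and lists were chosen with earlier results of these data known. The comparisons of KAN1 and LAS and of HDG4 with the vascular reporters, the settings without vascular reporters, and the permutation tests were chosen after seeing the data. The scripts were tested on simulated data. The alternatives were a pseudocount of 32, no filter, a 60th percentile filter, quantile normalization, array weights, no fold minimum, a replicate block and each array left out.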

Additional observations from a re-analysis of the deposited data

Results flagged for a closer look

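ATML1 over the 5 epidermal arrays had 1 array far from the others. HMG replicate 3 had a signal of 10344 and the next highest was 7963. On the log2(signal + 1) scale this gap was 0.753 of the whole range, beyond Dixon's 95% critical value for 5 samples. Chance alone would mark about 1 such group in 20, and all 10 members were checked in this way. Without that array the ATML1 differences of the epidermis kept their direction and their calls.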

How the results depend on the processing

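The members' differences kept their direction and their side of the threshold in 2188 cases over the alternatives, lost a call in 28, gained one in 17 and reversed in 1, ANL2 in HDG4 against the others when AtHB8 and S17 were omitted (-0.47). With the 60th percentile filter only 6 members were tested, and the members called were 5 for epidermis against the other reporters, 5 against HDG4, 1 against KAN1, 6 for KAN1 and LAS against the vascular reporters, 5 for HDG4 against the vascular reporters, and 6 in the F test. Against LAS 3 members were called with log2(signal + 32) and 2 with array weights, and AtML1 against HMG called 1 with array weights. Leaving out each array in turn gave 7 to 8 members against the other reporters, 7 to 8 against HDG4, 2 to 3 against KAN1, 1 to 2 against LAS, 8 to 9 against the vascular reporters, 0 to 1 for AtML1 against HMG, 6 to 7 for HDG4 against the others, 10 for KAN1 and LAS against the vascular reporters, 6 to 9 for HDG4 against the vascular reporters and 108 to 117 of the 210 pairs. For all probe sets it gave 527 to 968 calls against LAS (904 with all arrays) and 359 to 1192 for AtML1 against HMG (759 with all arrays, 1335 with array weights). With no fold minimum the calls over all probe sets were 5211 for epidermis against the other reporters (1918 with it), 3089 against HDG4 (1460), 2913 against KAN1 (1347), 1441 against LAS (904), 9205 against the vascular reporters (4389), 1603 for AtML1 against HMG (759), 5489 for HDG4 against the others (1899), 9224 for KAN1 and LAS (4238) and 9172 for HDG4 against the vascular reporters (5132). Omitting AtHB8 and S17 from the others, 968 were called for the epidermis and 1196 for HDG4. Causes were not tested. Of the permutation results 702 kept their side, 50 lost and 4 gained a call (HDG1, HDG5 and ANL2 against the vascular reporters with log2(signal + 32), and HDG1 without S17 replicate 1), and the 5 calls against the vascular reporters were each lost without any of 10 single arrays, where fewer arrays raise the smallest possible p. Same-numbered arrays of different reporters had a median r of deviations of 0.004 over 46 pairs (-0.227 to 0.206), against 5e-04 over 108 differently numbered pairs. This gave no sign that the numbers pair arrays, but with 2 or 3 arrays per reporter it cannot exclude shared batches. A fit with the replicate block changed 1 of 90 results, HDG11 against HDG4 (1.29, limma adjusted p = 0.0592).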
